A study of Mus musculus with 36 samples.

Results

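The 10 genes described here belong to the tumour necrosis factor (TNF) receptor superfamily: Tnfrsf14, Tnfrsf1a, Tnfrsf1b, Tnfrsf12a, Tnfrsf10b, Tnfrsf13b, Tnfrsf13c, Tnfrsf21, Ltbr and Fas. They are a listed part of the family, matched by gene name, out of 55291 genes in the count table, of which 13823 passed a filter on low counts. All 10 passed that filter, Tnfrsf12a and Tnfrsf10b through the injured libraries, in which they were higher than in sham. Tnfrsf14 was chosen by its normalised counts in these same libraries (low with the inhibitor), so its values are given as a description without a test. The other 9 are tested. The libraries came from mouse knee joints collected at 24 h, with 3 biological replicates in each of 3 groups: uninjured sham knees, knees with injury of the anterior cruciate ligament (ACL) and 0.9% saline as vehicle, and knees with the same injury and an inhibitor of protein kinase C (PKC). These are called sham, vehicle and inhibitor (PKCi in the plots). The compound, its dose and route, and the strain, sex and age of the mice are not given in the sources used here, nor is a genotype. The series has 36 libraries, and the 27 from a time course and from a comparison of Hippo pathway inhibitors were not analysed here.

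TNF receptors are membrane proteins with cysteine-rich outer domains that bind trimeric ligands of the TNF superfamily. Some, such as Tnfrsf1a, Fas and Tnfrsf10b, carry a death domain and can engage caspase-8, while others, such as Tnfrsf1b, Ltbr, Tnfrsf12a and Tnfrsf14, bind TRAF adaptors and feed the canonical or alternative NF-kB pathway. In the joint, TNF and its receptors are known from synovial inflammation and cartilage breakdown.

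The tissue was a mixture of cell types. One protocol text calls it knee joint tissue and another, for the same libraries, knee joint cartilage. Markers of cartilage were present, with summed normalised counts of 7732 to 23618 in sham, and so were markers of neutrophils (15646 to 21008), skeletal muscle (8437 to 21746) and erythroid cells (4637 to 6352). T and NK cell markers were scarce, at 22.6 to 62.9 for 10 genes together. Normalised counts here are reads brought to the average effective library size. Total counts ran from 124309584 to 202134770 per library, but 91.2% to 98.2% of them fell on 7SL RNA, and protein-coding genes took 1090575 to 4513491 counts. Inhibitor libraries 1 and 2 stand apart with 91.5% and 91.2% 7SL RNA against 96.7% to 98.2% in the other 7 libraries. In sham 1, 42.8% of protein-coding counts fell on Nemf, against 0.00403% to 0.00519% in the other libraries. Because the RNA is from bulk tissue, fewer cells of a type and less RNA per cell cannot be told apart in any result below.

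The stretches of DNA before the starts of 3 receptors are shown because these genes carried the main differences: Tnfrsf14 (lower with the inhibitor), Tnfrsf12a (higher after injury) and Tnfrsf1b (higher in every vehicle library than in every sham library). They are RefSeq promoter windows on GRCm38.p6, from 250 bases before to 50 bases after the transcript start, all from the minus strand and written 5′ to 3′. Capitals mark the letters of a TEAD motif (GGAATG or its reverse complement CATTCC). TEAD factors are the DNA-binding partners of YAP and TAZ in the Hippo pathway. The windows lie at chr4:154928028-154928327 (Tnfrsf14), chr17:23677400-23677699 (Tnfrsf12a) and chr4:145246821-145247120 (Tnfrsf1b).
Tnfrsf14: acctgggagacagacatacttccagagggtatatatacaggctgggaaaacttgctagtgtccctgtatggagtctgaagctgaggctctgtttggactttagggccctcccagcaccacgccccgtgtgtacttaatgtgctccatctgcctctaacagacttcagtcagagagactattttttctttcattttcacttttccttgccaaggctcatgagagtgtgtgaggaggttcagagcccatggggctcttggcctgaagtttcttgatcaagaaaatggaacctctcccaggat
Tnfrsf12a: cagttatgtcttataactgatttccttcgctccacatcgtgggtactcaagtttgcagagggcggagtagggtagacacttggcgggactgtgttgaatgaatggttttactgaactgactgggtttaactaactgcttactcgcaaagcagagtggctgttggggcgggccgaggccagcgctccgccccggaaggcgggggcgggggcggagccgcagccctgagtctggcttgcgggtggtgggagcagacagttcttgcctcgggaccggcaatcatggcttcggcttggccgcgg
Tnfrsf1b: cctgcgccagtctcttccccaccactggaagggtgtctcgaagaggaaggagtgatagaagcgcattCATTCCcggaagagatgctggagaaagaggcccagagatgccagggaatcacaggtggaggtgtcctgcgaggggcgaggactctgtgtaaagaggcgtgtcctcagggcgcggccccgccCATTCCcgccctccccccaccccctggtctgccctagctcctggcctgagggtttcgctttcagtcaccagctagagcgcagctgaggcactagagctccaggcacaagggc
The Tnfrsf14 window held 2 CpG dinucleotides and 48.7% G or C, that of Tnfrsf12a held 20 and 59.7%, and that of Tnfrsf1b held 13 and 62.7%. The medians over 32851 RefSeq windows of this length were 7 and 52.7%. RefSeq windows were found for 9 of the 10 members, all but Tnfrsf10b. Searched on both strands, the TEAD letters stood in 14.7% of all windows and in 1 of the 9, that of Tnfrsf1b, where they occurred 183 and 62 bases upstream of the start. The AP-1 letters TGANTCA stood in 7.81% of all windows and in 1 of the 9, that of Fas, 211 bases upstream. The NF-kB motif, searched by its consensus, stood in 8.46% of all windows and in 0 of the 9. None of the matches overlapped another motif, and a match is a run of letters, not a measured binding site. The RefSeq start used for Tnfrsf14 lies inside the gene as the count table draws it.

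Tnfrsf14, also called HVEM, is a receptor for the TNF ligand LIGHT (Tnfsf14) and the counterpart of the lymphocyte receptors Btla and Cd160. Its gene lies on mm10 at chromosome 4 from 154921933 to 154928563, and no other gene model in the table shares an exon base with it or with any of the other 9 members. Sham libraries 1 to 3 held 247, 179.6 and 206 normalised counts, and the vehicle libraries 191, 259 and 162. The inhibitor libraries held 62.3, 69.3 and 101. Sham and vehicle libraries overlapped fully, and all inhibitor libraries lay below all 6 others.

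The means were 211 ± 33.7 (sham), 204 ± 49.7 (vehicle) and 77.6 ± 20.8 (inhibitor; SD, n = 3 each), which made the inhibitor mean 2.63-fold lower than vehicle and 2.71-fold lower than sham. The fitted log2 fold changes were −0.04 between vehicle and sham, and with the inhibitor −1.41 relative to vehicle and −1.46 relative to sham. These values are the pattern that put Tnfrsf14 on the list. The raw counts behind them were 212, 137 and 109 in sham libraries 1 to 3, 115, 218 and 119 in vehicle, and 83, 178 and 78 in inhibitor libraries. Effective library sizes ran from 0.53 times their mean (sham 3) to 2.57 times (inhibitor 2). The normalised count of inhibitor 2 thus rests on the largest scaling. Without inhibitor libraries 1 and 2, the log2 fold change of the remaining library was −1.01 against vehicle and −1.05 against sham.

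**Figure D1:**
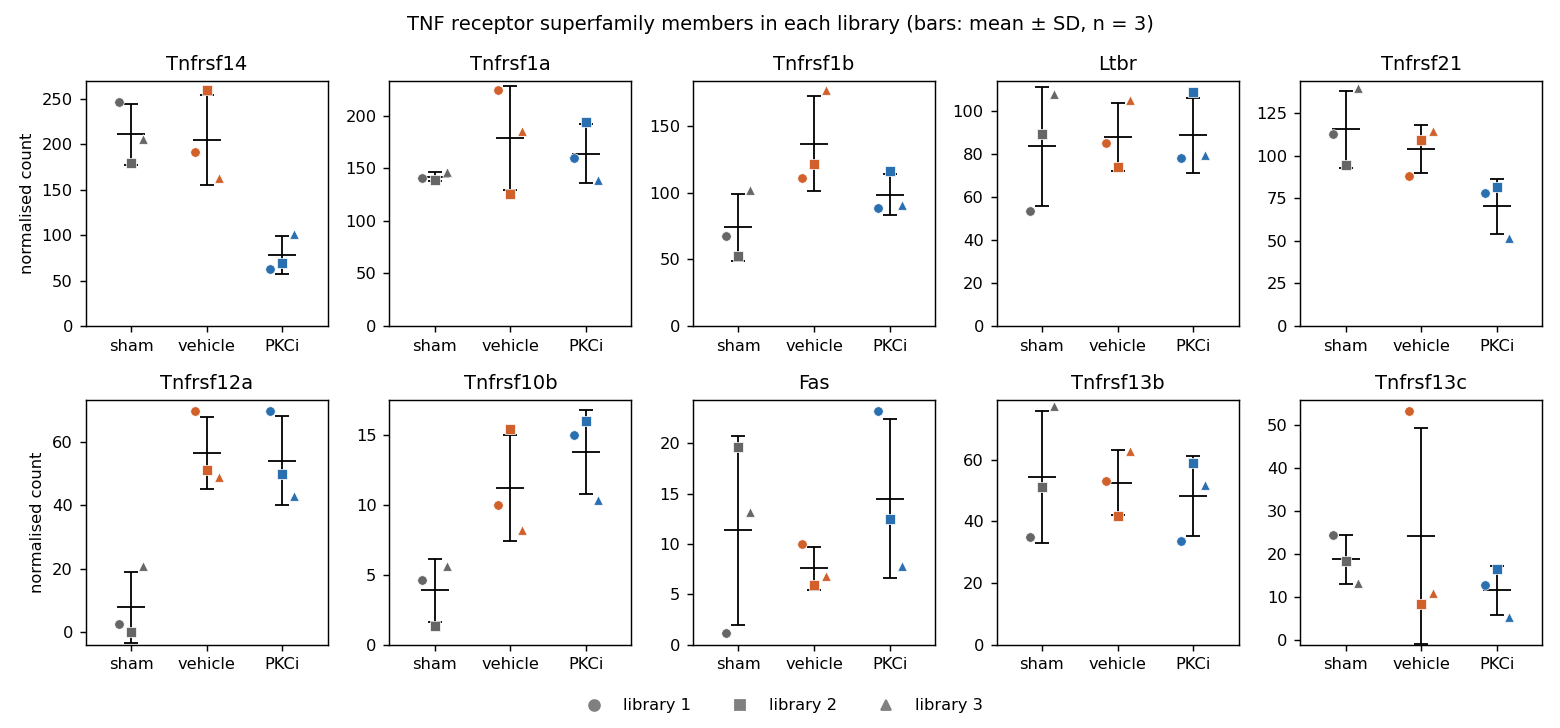
Normalised counts (vertical axes, separate scale in each panel) of the 10 receptors in 3 sham, 3 vehicle and 3 PKC inhibitor (PKCi) libraries; symbols are libraries 1 to 3, and bars are the mean ± SD. Tnfrsf14 sits at 62.3 to 101 in the inhibitor libraries and at 162 to 259 in the others, while Tnfrsf12a is at 0 to 20.7 in sham and at 42.8 to 69.8 after injury.

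Markers of other cell types moved with Tnfrsf14 in part. The 10 B lineage markers summed to 639 to 736 in sham, 524 to 542 in vehicle and 296 to 458 in inhibitor libraries, with none of the 10 at 0 in any group. Of the 8 tested, 1 fell against vehicle and 4 fell against sham in edgeR's test, where 0.702% and 2.68% of all tested genes fell. DESeq2 called 3 and 4, and 4 and 5 had an unadjusted p under 0.05. Ms4a1, Pax5, Ebf1 and Blk overlapped between inhibitor and vehicle, and Ebf1 had a positive log2 fold change (0.12). The 9 cartilage markers summed to 7732 to 23618, 7447 to 10151 and 1628 to 4428, again with none at 0, and 0 of 8 fell against vehicle (edgeR; 5 at an unadjusted p under 0.05, and 3 by DESeq2), while 4 fell against sham. Sums of neutrophil, monocyte and macrophage, erythroid and osteoclast markers overlapped between inhibitor and vehicle. For endothelial, muscle, osteoblast, and T and NK cell markers the inhibitor libraries lay on both sides of the vehicle range. Endothelial sums were 2147, 307 and 328 in inhibitor libraries 1 to 3 and 417 to 501 in vehicle. Muscle sums were 25817, 2448 and 4759 against 5359 to 6530. Osteoblast sums were 1081, 1707 and 3433 against 2366 to 3087, and T and NK cell sums 32.3, 49.5 and 29.9 against 42.3 to 48.2. The fibroblast sum, in which collagen Col1a1 dominates, was at 66049 to 75482 in vehicle and 22167 to 49122 in inhibitor libraries, although 4 of its 6 markers had a positive log2 fold change. The part of these cell types in the lower Tnfrsf14 level was not tested.

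The 5 genes listed next had profiles most like that of Tnfrsf14 over the 9 libraries, by Pearson's r of log2 CPM among genes above the lower quartile of expression. They were Troap (r = 0.990), a mitotic spindle protein, the zinc finger gene Zfp335 (0.985), Samd11 (0.980), the growth arrest and DNA damage gene Gadd45a (0.977) and the antiviral gene Shfl (0.976). All points share their library, depth and scaling, and the group difference itself makes up much of each r. Troap was at 75.5 ± 14.5 in vehicle and 16.04 ± 8.59 in inhibitor libraries, a wider gap than that of Tnfrsf14, and Gadd45a at 133 ± 13.7 and 100.4 ± 4.53, a narrower one. Of the 6 other members above that level, Tnfrsf21 had the highest r with Tnfrsf14 (0.659) and Tnfrsf12a the lowest (−0.422).

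**Figure D2:**
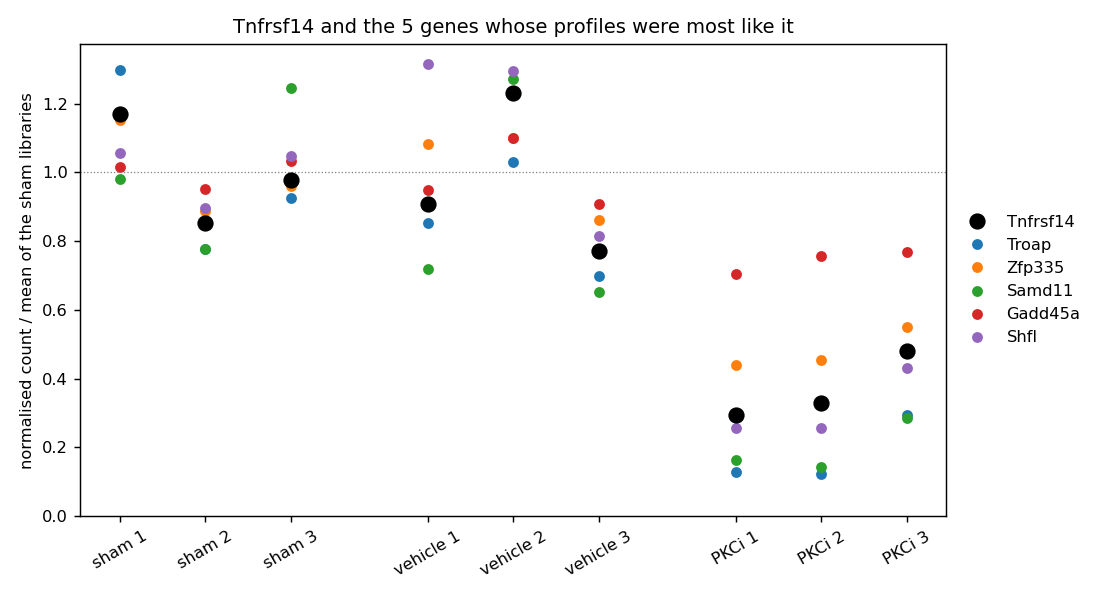
Normalised counts divided by the mean of the sham libraries (vertical axis) in each of the 9 libraries (horizontal axis) for Tnfrsf14 and the 5 genes with the highest Pearson r to it. All 6 genes lie below their sham mean in the 3 inhibitor (PKCi) libraries, with Gadd45a nearest to it.

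Compared per kilobase of exon, Tnfrsf14 was the most abundant of the 10 receptors in every sham and vehicle library. It made up 39.9% to 53.5% of their summed level in sham, 31.3% to 48.8% in vehicle and 17.0% to 29.0% in inhibitor libraries. Its level per kilobase was 2.33 to 3.16 times that of Tnfrsf1a within the sham libraries, 1.53 to 3.71 times within the vehicle libraries and 0.644 to 1.31 times within the inhibitor libraries. These shares and ratios are taken within a library, so they do not depend on scaling between libraries. They rest on the same Tnfrsf14 counts as the levels above.

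The order of mean levels per kilobase in sham ran from Tnfrsf14 (146) through Tnfrsf1a (54.9), Ltbr (35.4), Tnfrsf21 (28.1), Tnfrsf1b (19.4), Tnfrsf13b (19.2), Tnfrsf13c (9.11), Fas (5.50) and Tnfrsf12a (3.98) to Tnfrsf10b (0.711). Tnfrsf14 and Tnfrsf1a, Tnfrsf1a and Ltbr, and Tnfrsf13b and Tnfrsf13c did not overlap between libraries, and the other neighbours did. In vehicle, Tnfrsf12a stood at 29.3, between Tnfrsf1b (35.8) and Tnfrsf21 (25.3), and overlapped with both. In the inhibitor libraries Tnfrsf1a came first at 63.4 and Tnfrsf14 second at 54.0, and these overlapped. Without division by length, Tnfrsf14 ranked 4 of 10 there. In vehicle its mean still ranked 1 without that division, but it overlapped with Tnfrsf1a. There Tnfrsf1a was the higher in vehicle 1 (224 against 191) and vehicle 3 (186 against 162).

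**Figure D3:**
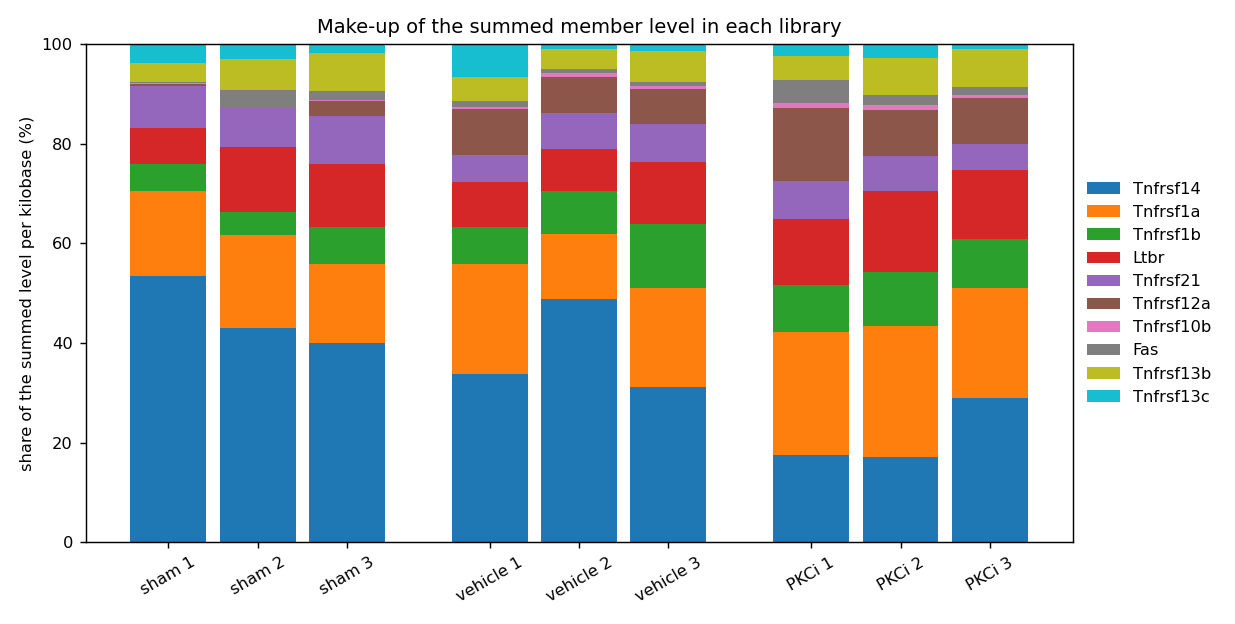
Share (vertical axis, percent) of each receptor in the summed level per kilobase of the 10 receptors, in each of 9 libraries (horizontal axis). The Tnfrsf14 share is 31.3% to 53.5% in sham and vehicle and 17.0% to 29.0% in the inhibitor (PKCi) libraries, and the Tnfrsf12a share is 0% to 3.0% in sham and 7.04% to 14.5% after injury.

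Injury was compared with sham to ask which receptors differed 24 h after ACL injury in vehicle-treated mice. In edgeR's quasi-likelihood test with Benjamini-Hochberg adjustment over all 13823 genes, 0 of the 9 tested members passed an adjusted p of 0.05, against a background of 0.304% of genes (0.282% higher and 0.0217% lower). At an unadjusted p under 0.05 there were 2 of 9, against 8.28% of genes, and DESeq2 called 1, Tnfrsf12a. Groups did not overlap for 3 of 9, all higher in vehicle (Tnfrsf12a, Tnfrsf1b and Tnfrsf10b), against 8.2% of all tested genes, and for 0 of 9 lower, against 8.76%. The median log2 fold change of the 9 was 0.31, with 6 positive, against −0.02 and 48.1% positive over all tested genes. Because Tnfrsf12a and Tnfrsf10b passed the filter through injured libraries, nothing is read from these counts and this median about the members as a set.

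Tnfrsf12a, or Fn14, the receptor of the cytokine TWEAK (Tnfsf12), is known as a gene induced in injured tissue. It lies on chromosome 17 from 23675445 to 23677468. Sham libraries 1 to 3 held 2.33, 0 and 20.7 normalised counts (2, 0 and 11 reads), the vehicle libraries 69.8, 51.1 and 49.1, and the inhibitor libraries 69.8, 49.9 and 42.8. Every injured library lay above every sham library, and sham 3 stood above the other sham libraries.

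The mean of Tnfrsf12a was 56.7 ± 11.4 in vehicle and 7.69 ± 11.4 in sham (SD, n = 3 each), and its log2 fold change was 3.08 (SE 0.77, adjusted p = 0.177). Its call depended on the setting. It passed by DESeq2 (adjusted p = 0.000881), with vehicle and sham alone in the fit (0.0387) and with no filter on low counts (5.51e-07). It also passed without sham 3 (log2 fold change 5.40, adjusted p = 0.0149) and without inhibitor 1 (0.0313). It did not pass without sham 1 (0.517) or 2 (0.309), vehicle 1 (0.531), 2 (0.279) or 3 (0.492), or inhibitor 2 (0.155) or 3 (0.235). Nor did it pass with 7SL genes left out of scaling (0.176), for protein-coding genes alone (0.185) or with the replicate number as a block (0.296). The fit without inhibitor 1 and 2 together leaves 1 inhibitor library, so only its log2 fold change of 3.10 is given and it is not counted among these settings.

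Inhibitor against sham gave the same size of difference for Tnfrsf12a, with a mean of 54.2 ± 13.96 against 7.69 ± 11.4, 3.03 as log2 fold change (SE 0.76) and an adjusted p of 0.0493. This comparison shares its sham libraries with the comparison above. Of the 9 tested members 1, Tnfrsf12a, passed here. The background was 3.95% of genes (1.27% higher and 2.68% lower), and nothing is read from the count against it, since the gene was tested because of its injured libraries. An unadjusted p under 0.05 was found for 3 of 9, against 18% of genes, and groups lay apart upward for 2 of 9 (Tnfrsf12a and Tnfrsf10b), against 11.2%, which is likewise given as a description. The call held by DESeq2 (adjusted p = 0.000345), with no filter on low counts (1.26e-07) and with 7SL genes left out of scaling (0.0491). It also held without sham 3 (adjusted p = 0.0112) or inhibitor 1 (0.0304). It ended without sham 1 (0.19) or sham 2 (0.0724), without vehicle 1 (0.0845), 2 (0.0823) or 3 (0.0921), and without inhibitor 2 (0.0887) or 3 (0.063). It also ended with inhibitor and sham alone in the fit (0.156) and for protein-coding genes alone (0.0511). For the fit without inhibitor 1 and 2 together, no adjusted p is given here either.

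Between inhibitor and vehicle, Tnfrsf12a overlapped, its log2 fold change being −0.06 (SE 0.60, adjusted p = 0.982). Sums of muscle and neutrophil markers were lower in the injured vehicle knees, where Tnfrsf12a was higher. The 6 muscle markers summed to 8437 to 21746 in sham and 5359 to 6530 in vehicle, and the 11 neutrophil markers to 15646 to 21008 and 8287 to 10726. Of the neutrophil markers, Elane, Mpo, Retnlg and Cxcr2 overlapped between sham and vehicle, and Cxcr2 had a positive log2 fold change (0.60). None of the muscle and neutrophil markers was at 0 in a group. After injury 1 of the 11 neutrophil genes fell in edgeR's test and 3 by DESeq2, with 9 of 11 at an unadjusted p under 0.05. For the 6 muscle genes all 3 of these counts were 0. In inhibitor libraries 1 to 3 the muscle sum was 25817, 2448 and 4759, highest in the library where Tnfrsf12a was highest too. The part of these cells in the Tnfrsf12a difference was not tested.

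Tnfrsf1b, or TNFR2, is the TNF receptor of leukocytes and endothelium that lacks a death domain. It lies on chromosome 4 from 145213463 to 145246870. It stood at 67.4, 52.4 and 101.8 in sham, 111, 121 and 177 in vehicle, and 88.5, 116 and 90.9 in inhibitor libraries. Sham and vehicle did not overlap, although sham 3 and vehicle 1 lay close together. Inhibitor libraries overlapped with both.

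The log2 fold change of Tnfrsf1b was 0.90 (SE 0.29, unadjusted p = 0.00608, adjusted p = 0.289) for vehicle against sham. With the inhibitor it was −0.47 relative to vehicle (SE 0.27, adjusted p = 0.486) and 0.44 relative to sham (SE 0.28, adjusted p = 0.454). None passed the test. Monocyte and macrophage markers, which share cell types with this receptor, summed to 2328 to 2887 in sham, 2439 to 3784 in vehicle and 2723 to 4313 in inhibitor libraries, with all 10 detected in each group. The lysozyme gene Lyz2, the largest share of that sum, overlapped between sham and vehicle. Of the 10 markers, 8 had a positive log2 fold change for vehicle against sham, 4 had an unadjusted p under 0.05, 0 passed in edgeR and 1, Cd14, by DESeq2. Cd14 (log2 fold change 3.06), Fcgr1 (1.71), Ccr2 (1.28) and Cd68 (0.67) lay higher in every vehicle library than in every sham library, against 8.2% of all tested genes. Csf1r, Adgre1, Lyz2, Mrc1, C1qa and C1qb overlapped, and the log2 fold change was negative for Lyz2 (−0.16) and Mrc1 (−0.08). The part of these cells in the Tnfrsf1b levels was not tested.

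Tnfrsf1a, or TNFR1, is the widely expressed death domain receptor of TNF (chromosome 6 from 125349362 to 125362484). The sham libraries held 141, 139 and 147 normalised counts, the vehicle libraries 224, 126 and 186, and the inhibitor libraries 159.8, 194 and 139. The 3 groups overlapped. Its log2 fold change was 0.32 (SE 0.24, adjusted p = 0.778) for vehicle against sham and −0.11 (SE 0.23, adjusted p = 0.876) for inhibitor against vehicle. The spread among sham libraries was narrow, and vehicle 1 and 2 marked both ends of the whole range.

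Tnfrsf10b, the TRAIL receptor that carries a death domain in mice, was the least abundant member per kilobase in each group (chromosome 14 from 69767472 to 69784411). Its reads numbered 1 to 4 in sham, 6 to 13 in vehicle and 8 to 41 in inhibitor libraries. Scaled, these were 4.65, 1.31 and 5.66 in sham, 9.97, 15.5 and 8.18 in vehicle, and 15.001, 15.97 and 10.4 with the inhibitor. All 6 injured libraries lay above the sham libraries, and the injured groups overlapped. Over all tested genes, 8.2% lay apart upward for vehicle against sham and 11.2% for inhibitor against sham. The differences of Tnfrsf10b from sham are given as a description, since the gene was tested because of its injured libraries. The log2 fold change was 1.55 (SE 0.74, adjusted p = 0.605) for vehicle and 1.86 (SE 0.71, adjusted p = 0.168) for inhibitor, each against the same sham libraries.

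Fas, the receptor of Fas ligand (chromosome 19 from 34290666 to 34327772), was near the limit of counting, with 1 to 15 reads in sham, 5 or 6 in vehicle and 6 to 32 in inhibitor libraries. Its normalised counts were 1.16, 19.7 and 13.2 in sham, which spanned the vehicle values of 9.97, 5.94 and 6.82. The inhibitor libraries held 23.3, 12.5 and 7.79. The log2 fold change was −0.57 (SE 0.82, adjusted p = 0.916) after injury and 0.96 (SE 0.77, adjusted p = 0.618) for inhibitor against vehicle, so a difference was not detectable at this depth.

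The inhibitor was compared with vehicle to ask which receptors differed when PKC was inhibited after injury. Beside Tnfrsf14, which is described above without a test, 0 of 9 members passed edgeR's test, against a background of 0.731% of genes (0.702% lower and 0.0289% higher). DESeq2 also called 0, and 1 of 9, Tnfrsf21, had an unadjusted p under 0.05, against 13.4% of genes. Groups lay apart in 0 of 9 upward, against 8.44% of genes. The median log2 fold change of the 9 was −0.11, with 3 positive, against 0.04 and 53.8% positive over all tested genes. Fas reached the minimum of the filter only in sham 2 and inhibitor 1 and 2, and Tnfrsf10b only in vehicle 2 and inhibitor 1 and 2. Both had positive log2 fold changes here, so nothing is read from this median and these signs about the members as a set. This comparison shares its vehicle libraries with that of injury and its inhibitor libraries with that of inhibitor against sham.

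Tnfrsf21, or death receptor 6, binds the amyloid precursor protein App and is known from neurons and lymphocytes (chromosome 17 from 43016555 to 43089189). It held 113, 94.4 and 139.6 normalised counts in sham, 88.1, 109 and 115 in vehicle, and 78.0, 81.4 and 51.9 in inhibitor libraries. The inhibitor libraries lay below all others, while sham and vehicle overlapped. Non-overlap in this direction was found in 1 of 9 members in each comparison, against 10.4% of tested genes relative to vehicle and 11.6% relative to sham.

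The log2 fold change of Tnfrsf21 was −0.55 (SE 0.26, unadjusted p = 0.0479, adjusted p = 0.364) against vehicle and −0.69 (SE 0.26, unadjusted p = 0.0158, adjusted p = 0.154) against sham, and neither passed. App itself was at 509 ± 149 in sham, 489 ± 48.4 in vehicle and 479 ± 112 in inhibitor libraries. Its largest log2 difference between groups was −0.08 (SE 0.23, adjusted p = 0.886).

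**Figure D4:**
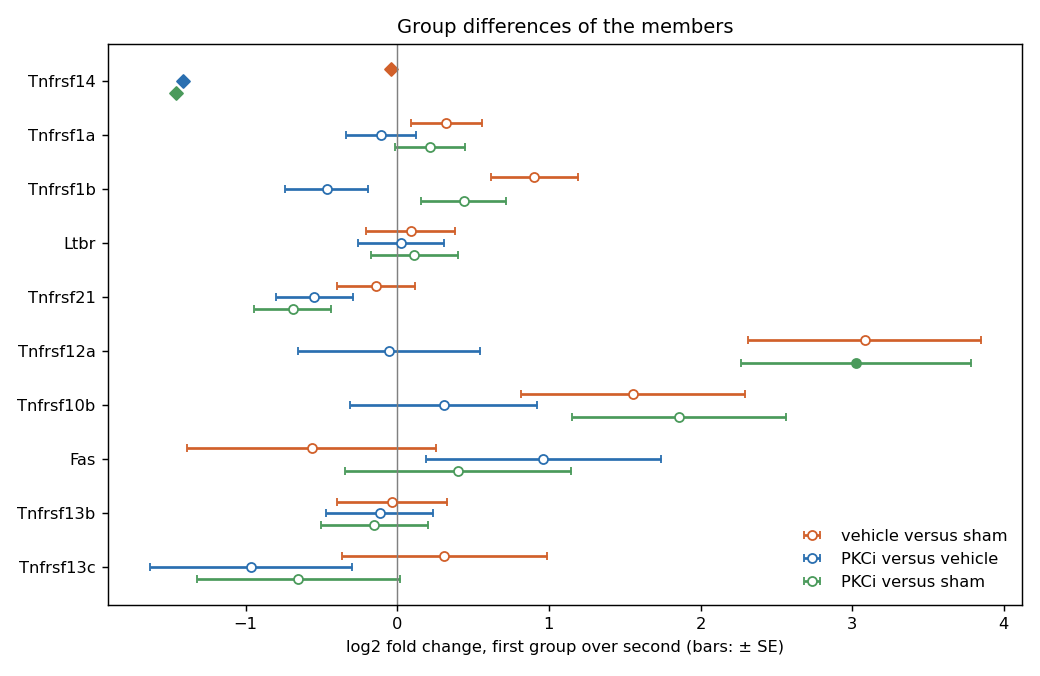
Log2 fold change (horizontal axis, bars ± SE) of each receptor in 3 comparisons, vehicle against sham, inhibitor (PKCi) against vehicle and inhibitor against sham; the filled circle passed an adjusted p of 0.05, open circles did not, and diamonds (Tnfrsf14) were not tested. Tnfrsf12a lies near 3 in both comparisons with sham and near 0 between inhibitor and vehicle, and Tnfrsf14 lies near −1.4 in both comparisons of the inhibitor.

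Ltbr, the lymphotoxin beta receptor that starts the alternative NF-kB pathway (chromosome 6 from 125306571 to 125313885), overlapped across all groups. It held 53.5, 89.1 and 107 normalised counts in sham, 84.7, 73.7 and 105 in vehicle, and 78.0, 109 and 79.2 in inhibitor libraries. Its log2 fold changes were 0.09 (SE 0.29), 0.02 (SE 0.28) and 0.11 (SE 0.29) for vehicle against sham, inhibitor against vehicle and inhibitor against sham, with adjusted p of 0.973, 0.984 and 0.877 in edgeR.

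Tnfrsf13b (TACI) and Tnfrsf13c (the BAFF receptor) are B cell receptors of the survival factor BAFF (Tnfsf13b) and lie on chromosome 11 from 61126755 to 61149372 and on chromosome 15 from 82221743 to 82224369. Tnfrsf13b held 34.9, 51.1 and 77.3 normalised counts in sham, 53.2, 41.6 and 62.7 in vehicle, and 33.8, 58.8 and 51.9 in inhibitor libraries. These overlapped throughout, with log2 fold changes of −0.03 (SE 0.36, adjusted p = 0.991) after injury and −0.12 (SE 0.35, adjusted p = 0.921) for inhibitor against vehicle. The sum of the B lineage markers, as given above, was lowest in the inhibitor libraries, and the difference in behaviour from Tnfrsf13b was not tested.

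Tnfrsf13c held 24.4, 18.4 and 13.2 normalised counts in sham, 53.2, 8.32 and 10.9 in vehicle, and 12.8, 16.4 and 5.19 in inhibitor libraries. Vehicle 1 stood far above all other libraries. The log2 fold change was 0.31 (SE 0.68, adjusted p = 0.953) for vehicle against sham and −0.96 (SE 0.67, adjusted p = 0.555) for inhibitor against vehicle. Without vehicle 1 these were −0.97 (adjusted p = 0.89) and 0.31 (adjusted p = 0.878), so the sign of each rested on that library.

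The ligands of these receptors did not pass the test in any comparison. Of 18 listed TNF superfamily ligands, 8 were tested, and edgeR and DESeq2 each called 0 of 8. At an unadjusted p under 0.05 there was 1 of 8 for vehicle against sham (Tnfsf11, or RANKL) and 0 of 8 in the other comparisons. Tnfsf11 had 3, 7 and 1 reads in sham 1 to 3 and was likewise tested because of its injured libraries. Tnfsf12 (TWEAK), the ligand of Tnfrsf12a, was the most abundant with 739 reads, and held 69.8, 107.5 and 64.1 normalised counts in sham, 68.1, 58.2 and 65.5 in vehicle, and 114, 77.9 and 94.8 with the inhibitor. The inhibitor libraries lay above the vehicle libraries (log2 fold change 0.58, SE 0.27, adjusted p = 0.375) and overlapped with sham.

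Tnfsf14 (LIGHT), the ligand of Tnfrsf14 and Ltbr, had 15.1, 14.4 and 0 normalised counts in sham, 29.9, 30.9 and 30.01 in vehicle, and 13.5, 41.7 and 9.09 in inhibitor libraries. Vehicle lay above sham (log2 fold change 1.52, SE 0.74, adjusted p = 0.622), and the inhibitor libraries spread over both sides of it. Btla overlapped throughout, at 14.9 ± 0.393 in sham, 19.3 ± 8.38 in vehicle and 17.5 ± 13.6 in inhibitor libraries, and Cd160, with 6 reads in all, was below the filter.

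Tnf, at 13.3 ± 1.74 in sham, 8.87 ± 3.36 in vehicle and 6.48 ± 2.85 in inhibitor libraries, was lower in every vehicle library than in every sham library (log2 fold change −0.54, SE 0.66, adjusted p = 0.887). This rests on 8 to 10 reads in sham and 3 to 9 in vehicle, and the nearest libraries held 11.6 and 10.9 normalised counts. Inhibitor libraries also all lay below sham (log2 fold change −0.95, SE 0.64, adjusted p = 0.471). Ltb, a ligand of Ltbr, was at 47.2 ± 28.5, 40.0 ± 17.6 and 40.4 ± 21.7 in the same order, and overlapped. Tnfsf10 (TRAIL), the ligand of Tnfrsf10b, was at 18.6 ± 9.5, 7.00 ± 5.32 and 12.6 ± 14.4, and overlapped as well. The BAFF gene Tnfsf13b was at 15.5 ± 5.23, 10.7 ± 6.46 and 9.04 ± 6.01, and its relative APRIL (Tnfsf13) at 25.3 ± 7.5, 32.0 ± 2.26 and 27.2 ± 13.9. Lta and Fasl, with 4 reads and 1 read over all libraries, were below the filter.

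Of 18 other receptors of the superfamily, 8 were tested. For vehicle against sham edgeR and DESeq2 each called 0 of 8, with 3 of 8 at an unadjusted p under 0.05, and for inhibitor against vehicle 0 of 8 each, with 1 of 8. For inhibitor against sham, 1 of 8 rose in edgeR and 3 by DESeq2. Eda2r, Tnfrsf22 and Tnfrsf23 were the receptors at an unadjusted p under 0.05 for vehicle against sham. Their reads in sham 1 to 3 were 4, 0 and 1, then 5, 3 and 1, then 5, 13 and 7. They passed the filter on low counts mainly through the injured libraries, in which they were higher. Nothing is therefore read from the counts of calls against sham. The riser was Tnfrsf23, a mouse decoy receptor for TRAIL, at 5.81, 17.0 and 13.2 normalised counts in sham and 25.5, 46.7 and 50.6 with the inhibitor (log2 fold change 1.77, SE 0.47, adjusted p = 0.0465). Vehicle libraries held 29.9, 24.96 and 35.5, which also lay above sham.

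The Tnfrsf23 call held without inhibitor 1 (adjusted p = 0.0134) and ended without any other library, at 0.201, 0.0686 and 0.117 without sham 1 to 3, 0.07, 0.0641 and 0.0749 without vehicle 1 to 3, and 0.13 and 0.0993 without inhibitor 2 and 3. Tnfrsf22 and Tnfrsf23 are close paralogues, and reads with several locations were counted at each, so their levels are uncertain to that extent. Eda2r, a receptor of the ectodysplasin ligand and a p53 target, named here after its values were seen, held 4.65, 0 and 1.89 normalised counts in sham, 41.5, 7.13 and 24.6 in vehicle, and 45.8, 7.79 and 11.7 in inhibitor libraries. It lay above sham in all 6 injured libraries with a wide spread among them (log2 fold change 3.32, SE 1.04, adjusted p = 0.292 for vehicle, and 3.18, SE 1.02, adjusted p = 0.104 for inhibitor). This is given as a description, since the gene was tested because of its injured libraries.

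Downstream of the receptors, 21 genes of receptor-proximal signalling (TRAF adaptors, RIP kinases, caspase-8 and its regulators, ubiquitin enzymes) were all tested. In each of the 3 comparisons edgeR and DESeq2 called 0 of 21, with 1 (vehicle against sham), 2 (inhibitor against vehicle) and 2 (inhibitor against sham) of 21 at an unadjusted p under 0.05. Their median log2 fold changes were 0.17, −0.08 and 0.10 in that order, against −0.02, 0.04 and 0.03 over all tested genes. The adaptor Traf1, named here after its values were seen, was at 14.6 ± 1.55 in sham, 31.7 ± 9.75 in vehicle and 13.98 ± 2.2 in inhibitor libraries, and vehicle did not overlap with either (adjusted p = 0.507 against sham and 0.25 for inhibitor against vehicle). Over all tested genes, 8.2% lay apart upward after injury and 10.4% downward with the inhibitor. Cflar, also named after its values were seen, was at 480 ± 72.6 in sham, 391 ± 74.8 in vehicle and 614 ± 52.5 in inhibitor libraries. Sham and vehicle overlapped (log2 fold change −0.30, SE 0.20, adjusted p = 0.752). Its inhibitor libraries lay above all vehicle libraries (log2 fold change 0.65, SE 0.20, adjusted p = 0.159), against 8.44% of genes. They also lay above all sham libraries (log2 fold change 0.35, SE 0.20, adjusted p = 0.383), against 11.2% of genes.

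Of 12 NF-kB subunits and feedback genes, edgeR called 0 for vehicle against sham (1 at an unadjusted p under 0.05, 0 by DESeq2), 1 for inhibitor against vehicle (the same by DESeq2) and 0 for inhibitor against sham (3 at an unadjusted p under 0.05, 0 by DESeq2). Nfkbiz, an inducible nuclear cofactor of NF-kB, fell with the inhibitor, from 123, 144 and 134 normalised counts in vehicle to 39.8, 75.6 and 58.4 (log2 fold change −1.19, SE 0.26, adjusted p = 0.0458). Sham libraries held 91.9, 98.3 and 84.9, between the other groups. The call held without inhibitor 2 (adjusted p = 0.0408). It ended with the adjusted p at 0.0759, 0.076 and 0.0608 without sham 1 to 3, at 0.0949, 0.224 and 0.149 without vehicle 1 to 3, and at 0.0969 and 0.0572 without inhibitor 1 and 3.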

How the data were processed

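Raw read counts per gene name were deposited for 9 libraries. Per the file headers, the authors counted read pairs with featureCounts 2.0.1 on the reverse strand over GENCODE M25 exons, with multi-mapping reads counted in full and a read over more than 1 gene given to every one of them. HISAT2 and mm10 are named in the submitters' processing notes; the aligner's version is not given in the sources used here. Columns were given to samples by name; 27 columns of the other tables match no label and were not used.

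The 9 libraries were scaled by TMM, filtered with filterByExpr and fitted together in edgeR 4.0.16 (R 4.3.3) with robust quasi-likelihood dispersions. Tests are two-sided F tests, adjusted by Benjamini-Hochberg over 13823 genes at 0.05. SEs were derived from the fold change and F. DESeq2 1.42.0 and other settings were alternatives. log2 CPM used a prior count of 2. The rule named all 10 members, their ligands and listed pathway genes that passed. Traf1, Cflar, Eda2r, Tnfrsf22, Tnfsf11 and single marker genes were named after their values were seen. Members and lists were chosen with earlier results of these data known. Same-numbered libraries did not deviate together (r from −0.24 to 0.07), so replicate numbers were not used as pairs.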

Additional observations from a re-analysis of the deposited data

How the results depend on the processing

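Tnfrsf14 was chosen by its low level with the inhibitor in these same libraries, which every alternative reuses. Its range over the 16 alternatives is therefore a description and no test of that pattern. The log2 fold change with the inhibitor ran from −1.64 to −1.01 against vehicle and from −1.68 to −1.05 against sham. The values nearest 0 are those without inhibitor libraries 1 and 2. The counts of genes called depended on the setting. For vehicle against sham they were 42 as reported, 155 by DESeq2, 262 with no filter on low counts, 291 with only the groups compared, 24 with the replicate block, 301 without inhibitor 1 and 2, and 1 to 234 without single libraries. For inhibitor against vehicle they were 101, 355 by DESeq2, 554 with no filter, 3 with only the groups compared, 20 without inhibitor 1 and 2, and 0 to 256 without single libraries. For inhibitor against sham they were 546, 885 by DESeq2, 1056 with no filter, 198 with only the groups compared, 174 without inhibitor 1 and 2, and 141 to 841 without single libraries. Members called for vehicle against sham numbered 1 by DESeq2, with no filter, with only the groups compared and without inhibitor 1 and 2, and 0 to 1 without single libraries. For inhibitor against sham they numbered 0 with only the groups compared, with the replicate block, for protein-coding genes alone (added after seeing the data) and without inhibitor 1 and 2, and 0 to 1 without single libraries. The library numbers gave no sign of pairing. Directions turned for members with log2 fold changes near 0 or low counts: for vehicle against sham Tnfrsf13b (−0.28 to 0.29 without single libraries, 0.0026 with the replicate block), Tnfrsf13c (−0.97 to 0.76), Tnfrsf21 (−0.27 to 0.0069), Ltbr (−0.16 to 0.30) and Fas (−1.14 to 0.19); for inhibitor against vehicle Tnfrsf1a (−0.33 to 0.0799), Tnfrsf12a (−0.27 to 0.11), Tnfrsf13b (−0.32 to 0.095), Tnfrsf13c (−1.41 to 0.31) and Ltbr (−0.18 to 0.17, and −0.15 without inhibitor 1 and 2), and Tnfrsf10b at −0.12 without inhibitor 1 and 2; and for inhibitor against sham Tnfrsf13b (−0.40 to 0.17), Ltbr (−0.14 to 0.32) and Fas (−0.18 to 1.15), with −0.0200 (Tnfrsf1a), −0.0398 (Ltbr) and −0.49 (Fas) without inhibitor 1 and 2. Of 425 values of the 9 tested members, 28 turned direction, 11 lost and 6 gained a call, and 7 more, of Fas and Tnfrsf10b, could not be had because the gene failed the filter. Tnfrsf14, not tested, ran from −0.23 to 0.10 for vehicle against sham and turned direction in 3 of its alternatives (without sham 1, vehicle 1 or vehicle 3). With the replicate block, the adjusted p of Tnfrsf12a for inhibitor against sham was 0.08. The causes were not tested.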
